A study of Homo sapiens with 7 samples.

Results

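The RNA of 9 genes for cell surface adhesion molecules was examined, namely ICAM1, ICAM2, ICAM3, ICAM5, VCAM1, CD58, NCAM1, ALCAM and CADM1. They were chosen by name, as members of the immunoglobulin superfamily by which a tumor cell can hold a natural killer (NK) cell or another leukocyte, and they are 9 of the 57189 genes in the deposited count table. RH30, an established alveolar rhabdomyosarcoma line described as wild type in the labels, was grown as untreated cells (n = 4) or with 5 µM BV6 for 24 h (n = 3). The paper's methods, however, state that RH30 cells expressing GFP and luciferase served for the whole study. BV6 is a bivalent Smac mimetic, a small molecule that antagonizes inhibitor of apoptosis proteins. All 7 libraries came from this single line, and the labels name no co-culture with NK cells. The study calls these samples biological replicates. The labels give an experiment code that joins BV6 replicates 2, 3 and 4 to untreated replicates 2, 3 and 4, whereas untreated replicate 1 had no BV6 partner.

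Adhesion molecules of the immunoglobulin superfamily carry their ligand-binding immunoglobulin folds outside the cell, and most of those examined here bind a receptor on leukocytes. The ICAM proteins are ligands of the β2 integrins, chiefly LFA-1 (ITGAL with ITGB2), which NK cells use to form a firm contact with a target. VCAM1 is the ligand of the integrin VLA-4 (ITGA4 with ITGB1), CD58 binds CD2, ALCAM binds CD6 and CADM1 binds CRTAM, whereas NCAM1 (CD56) binds itself on neighboring cells and is a known surface marker of both rhabdomyosarcoma and NK cells. ICAM1 and VCAM1 are textbook target genes of NF-κB and are inducible in endothelium by inflammatory cytokines.

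The promoters of VCAM1 and ICAM1 are shown because both genes are known NF-κB targets. In the edgeR test given below, which did not use the pairs, VCAM1 also had the lowest p-value of the 8 genes tested. However, it passed the low-count filter of that test only through its BV6 samples, and NCAM1 had a lower p when the pairs were used. Sequences were taken from RefSeq on GRCh38.p14, read 5′ to 3′ on the plus strand. The VCAM1 stretch lies at chr1:100719492-100719741 and ends at the base before the start of the gene. The ICAM1 stretch lies at chr19:10270870-10271092 and ends 27 bases short of the RefSeq start. Capitals mark matches to a κB motif or, where they read TTTATA or run on from it, to TATAAA on either strand.
VCAM1: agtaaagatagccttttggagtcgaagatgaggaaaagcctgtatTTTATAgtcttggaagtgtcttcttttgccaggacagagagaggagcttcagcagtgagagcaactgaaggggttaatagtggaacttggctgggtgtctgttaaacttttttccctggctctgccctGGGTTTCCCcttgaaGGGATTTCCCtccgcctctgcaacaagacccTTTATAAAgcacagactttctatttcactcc
ICAM1: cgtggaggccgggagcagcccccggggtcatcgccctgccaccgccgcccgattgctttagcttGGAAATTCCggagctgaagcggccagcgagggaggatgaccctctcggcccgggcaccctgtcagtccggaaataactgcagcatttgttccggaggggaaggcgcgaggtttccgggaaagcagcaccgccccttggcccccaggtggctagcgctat
In the VCAM1 promoter, GGGTTTCCC began 77 bases and GGGATTTCCC 62 bases before the start. The second of these also matched the κB consensus of 10 letters, which was found in 5.21% of 35116 RefSeq promoter windows of 250 bases when both strands were searched. The motif GGGNTTNCC, which matched at both VCAM1 positions and was written down after this sequence had been seen, was present in 4.7% of the windows. In the ICAM1 promoter, GGAAATTCC began 186 bases before the start, and the motif GGAANTTCC that it matched was present in 0.826% of the windows. TATAAA, found in 10.7% of the windows, began 29 bases before the VCAM1 start and overlapped a match on the other strand at 31 bases. A further match on the other strand lay at 205 bases in VCAM1. TATAAA at 30 bases in ICAM1 began in the last letters of the stretch shown and ran past its end, so it is not in capitals. RefSeq entries were found for 6 of the 9 genes, and none of these motifs matched in the windows of ICAM3, ICAM5, CD58 or ALCAM. No entry was found for ICAM2, NCAM1 or CADM1. A match describes letters only, and no binding was measured.

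Libraries held 54070030 to 77220882 counts. The detection floor of 3 counts thus corresponded to 0.0389 to 0.0557 CPM, the count scaled to the library size after TMM normalization. BV6 replicate 3 stood apart in base composition. In each library, the fitted log2 level of genes at 61.4% GC minus that at 38.6% GC, relative to the mean of all libraries, was between −0.08 and 0.17 in 5 of the 7 libraries. It was 0.54 in untreated replicate 1 and −0.75 in BV6 replicate 3. The muscle-lineage markers DES (768 ± 114 CPM untreated, SD, n = 4) and MYOD1 (344 ± 86.8 CPM) were abundant, and none of the 10 muscle markers was at 0 throughout.

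The 9 genes spanned a wide range of RNA level in untreated cells. Levels between genes were compared as CPM per kilobase of merged exons. NCAM1 was the highest, at 33.6 ± 5.14 (SD, n = 4), above 93.5% of 18488 genes that had a known length and at least 3 counts in every untreated sample. CD58, the ligand of CD2, followed at 10.6 ± 1.32, above 76.9% of these genes. NCAM1 exceeded CD58 in each of the 7 samples, and CD58 exceeded ALCAM in each.

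The next genes were ALCAM at 2.81 ± 0.805 and ICAM3 at 2.14 ± 0.323 CPM per kilobase. Their untreated ranges overlapped, and ALCAM was above ICAM3 in 5 of 7 samples, so their order was not resolved by the spread. CADM1 at 0.220 ± 0.0673 and ICAM5 at 0.108 ± 0.0134 CPM per kilobase had ranges apart from each other and from their neighbors in untreated cells. ICAM1 (0.0470 ± 0.0223), ICAM2 (0.0368 ± 0.0166) and VCAM1 (0.0142 ± 0.00719) were the lowest, and each of these neighbors overlapped. They exceeded 6.43%, 4.86% and 1.10% of the 18488 genes, respectively.

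Among the 4 ICAM genes examined, most of the counted RNA was assigned to ICAM3 rather than ICAM1. However, ICAM4, which is not among the 9, was at 2.70 CPM per kilobase in untreated cells. Per length, ICAM3 made up 88.8 to 93.1% of the summed level of these 4 genes over the 7 samples. The untreated ICAM3 level per length was 45.6-fold that of ICAM1. NCAM1 alone held 55.6 to 69.2% of the summed level of all 9 genes.

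**Figure D1:**
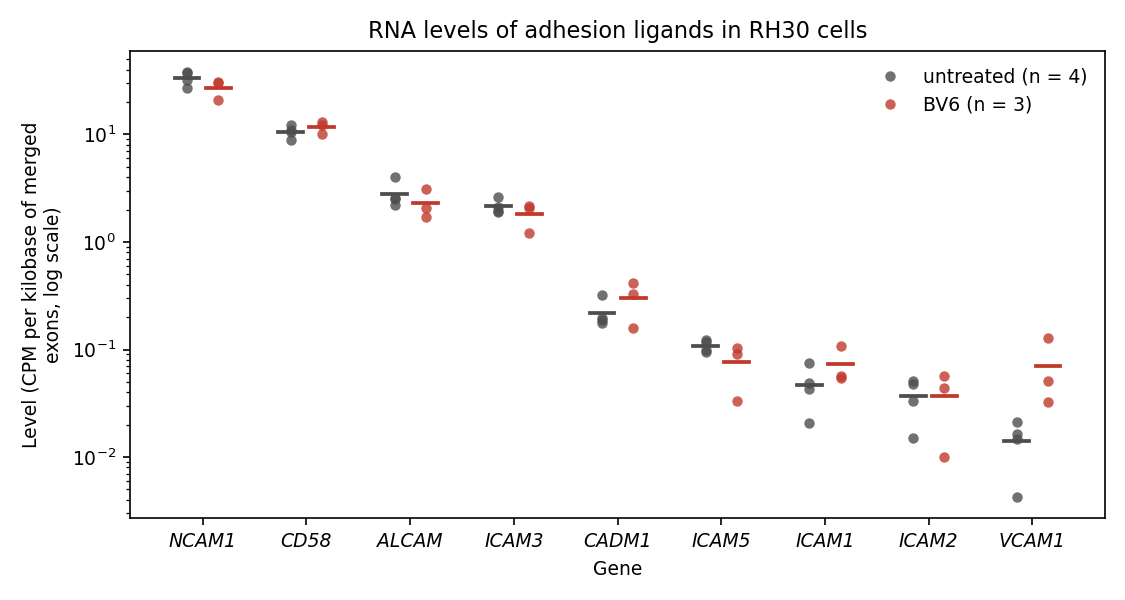
RNA level of each adhesion ligand gene per library, in CPM per kilobase of merged exons on a log axis, with untreated samples in gray (n = 4) and BV6 samples in red (n = 3) and a bar at each group mean. NCAM1 lay at 33.6 and VCAM1 at 0.0142 in untreated cells, and VCAM1 was the only gene whose groups did not overlap.

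The genes also differ in where they lie and in what shares their position, which bears on the counts. Coordinates are those of GENCODE release 44 for GRCh38, and all 9 genes are protein-coding. ICAM1 (chr19:10271093-10286615, plus strand), ICAM5 (chr19:10289952-10296778, plus strand) and ICAM3 (chr19:10333776-10339661, minus strand) lie within 68.6 kb of each other on chromosome 19, whereas ICAM2 lies at chr17:64002594-64020634 on the minus strand. VCAM1 (chr1:100719742-100739045, plus strand) and CD58 (chr1:116514534-116571039, minus strand) are on chromosome 1, and ALCAM (chr3:105366909-105576900, plus strand) is on chromosome 3. NCAM1 (chr11:112961275-113278436, plus strand) and CADM1 (chr11:115169218-115504957, minus strand) are 1.89 Mb apart on chromosome 11.

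Exons of other genes on the opposite strand cover 75.4% of the merged ICAM3 exons, through the lncRNA ENSG00000274425. They cover 26.8% of the ICAM2 exons, through PRR29, and 23.6% of the ICAM1 exons, through ICAM4-AS1. NCAM1-AS1 covers 4.83% of the NCAM1 exons and held 480 to 1432 counts against 14977 to 31183 for NCAM1. The libraries were stranded, but whether the counting used strand is not given in the sources used here, so reads of such pairs may not be told apart. This limit also holds for the ICAM3 level and its share of the ICAM sum.

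Whether BV6 changed the RNA of these ligands was asked by comparing the 3 BV6 samples with the 4 untreated samples. VCAM1 was higher in every BV6 sample than in every untreated sample, from a level near the detection limit. NCAM1 was lower with BV6 in all 3 pairs, at 0.774 to 0.820 of its untreated partner, and so was ALCAM, at 0.688 to 0.819. Each of the other genes was higher in some pairs and lower in others. No gene of the 9 passed an adjusted p of 0.05 (edgeR quasi-likelihood test, Benjamini-Hochberg adjustment). In that test 8 of the 9 genes were examined, since ICAM2 did not pass the filter on low counts, and 0 of 8 were called beside 0.45% of the 23124 genes tested. At an unadjusted p below 0.05, 1 of the 8 passed, beside 8.39% of all genes tested. This was VCAM1, which had passed the filter only through its BV6 samples, so its p does not stand apart from that choice. DESeq2, with a Wald test, called 0 of 9, beside 0.94% of the 43421 genes with a count in any sample. Some of these genes received no adjusted p, so the share among genes that did is higher. The median log2 fold change of the 8 tested genes was −0.04 (4 higher, 4 lower), beside −0.01 over all genes tested.

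VCAM1, the ligand of VLA-4, had 2, 5, 6 and 8 counts in untreated replicates 1 to 4 and 11, 19 and 42 counts in BV6 replicates 2, 3 and 4. These counts correspond to 0.0259, 0.0890, 0.0995 and 0.129 CPM without and 0.196, 0.310 and 0.779 CPM with BV6. The groups did not overlap, BV6 replicate 4 was the highest and untreated replicate 1 was under the floor of 3 counts. The mean was 0.0859 ± 0.0435 CPM (SD, n = 4) in untreated cells and 0.428 ± 0.309 CPM (SD, n = 3) with BV6, a ratio of means of 4.98. The filter asked for at least 0.168 CPM in 3 samples, which VCAM1 reached in all 3 BV6 samples and in 0 untreated samples. VCAM1 thus entered the test only through the group in which it was high, so that its separate groups were given by the filter and are a description. Among all genes tested, groups did not overlap in 8.83%, and in 4.94% with BV6 higher.

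The log2 fold change of VCAM1 was 2.32 (SE 0.612, 95% confidence interval 0.94 to 3.69), with an adjusted p of 0.231 in edgeR. An exact two-sided permutation test of its log2 CPM, which did not use the pairs, gave p = 0.0571, the smallest value that 4 against 3 samples allow. Because the filter had already set the groups apart, this p was fixed in advance and adds no evidence. Within pairs, the ratio of BV6 to untreated CPM was 2.20 in replicate 2, 3.11 in replicate 3 and 6.03 in replicate 4. The exact (Clopper-Pearson) 95% intervals, which cover counting error only, were 0.704 to 8.07, 1.19 to 9.52 and 2.80 to 14.9. The total counts exceed the number of reads that the study's methods name, and both mates of a pair may have been counted. When the counts of each pair were halved for these intervals, a step chosen after the data were seen, they were 0.427 to 12.4, 0.843 to 18.5 and 2.03 to 24.2. VCAM1 was above its partner in all 3 pairs, as were 15.5% of all genes tested. For VCAM1 this direction too was set by the filter, so the comparison with that share adds no evidence. The interval spanned a ratio of 1 in replicate 2 and, with counts halved, also in replicate 3. Without BV6 replicate 4 the log2 fold change fell to 1.57, and without BV6 replicate 3 it was 2.51. In DESeq2 the adjusted p was 0.0548, and over the 15 alternatives in which VCAM1 was tested it ranged from 0.0548 to 0.532. VCAM1 was not tested with 10 counts in every sample or with counts halved.

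ICAM1, the inducible ligand of LFA-1 and Mac-1, had 13, 4, 9 and 16 counts in untreated replicates 1 to 4 and 11, 23 and 10 counts in BV6 replicates 2, 3 and 4. The groups overlapped, since untreated replicate 4 (0.259 CPM) was above BV6 replicates 2 (0.196 CPM) and 4 (0.186 CPM). The ratio within pairs was 2.75, 2.51 and 0.718 in replicates 2, 3 and 4. Its log2 fold change was 0.63 (SE 0.486, 95% confidence interval −0.46 to 1.72), with an adjusted p of 0.768 in edgeR, and fell to 0.23 without BV6 replicate 3.

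ICAM2, a ligand of LFA-1 known from endothelium and platelets, had 12, 6, 10 and 3 counts in untreated replicates 1 to 4 and 8, 2 and 10 counts in BV6 replicates 2, 3 and 4. Its level was 0.119 ± 0.0537 CPM (n = 4) without and 0.120 ± 0.0789 CPM (n = 3) with BV6. In edgeR without the filter on low counts, the log2 fold change was −0.03 (95% confidence interval −1.43 to 1.37), with an adjusted p of 0.995. At this depth a change within that interval was not detectable.

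ICAM3, a ligand of LFA-1 known from leukocytes, had CPM levels of 7.25, 5.91, 5.26 and 5.45 in untreated replicates 1 to 4 and of 5.96, 3.37 and 5.83 in BV6 replicates 2, 3 and 4. ICAM5, a ligand of LFA-1 known from neurons of the forebrain, had 29, 26, 29 and 24 counts untreated and 20, 8 and 22 counts with BV6. For both genes BV6 replicate 3 was the lowest of the 7 samples, the other BV6 samples lay near or within the untreated range, and the groups overlapped. ICAM3 and ICAM5 also had the highest GC content of the 9 genes, 61.7% and 67.5%, and BV6 replicate 3 was the library with the lowest relative level of GC-rich genes. Of the genes next in GC content, ICAM2 (57.3%) was also lowest in that library, with 2 counts, but ICAM1 (56.0%) was highest there, with 23 counts. The part of base composition in these values was not tested. The log2 fold change of ICAM3 was −0.24 (SE 0.227, adjusted p = 0.806 in edgeR), −0.01 without BV6 replicate 3 and −0.04 with each library corrected for GC content. That of ICAM5 was −0.52 (SE 0.402, adjusted p = 0.768 in edgeR), −0.15 without BV6 replicate 3 and −0.27 with the correction.

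**Figure D2:**
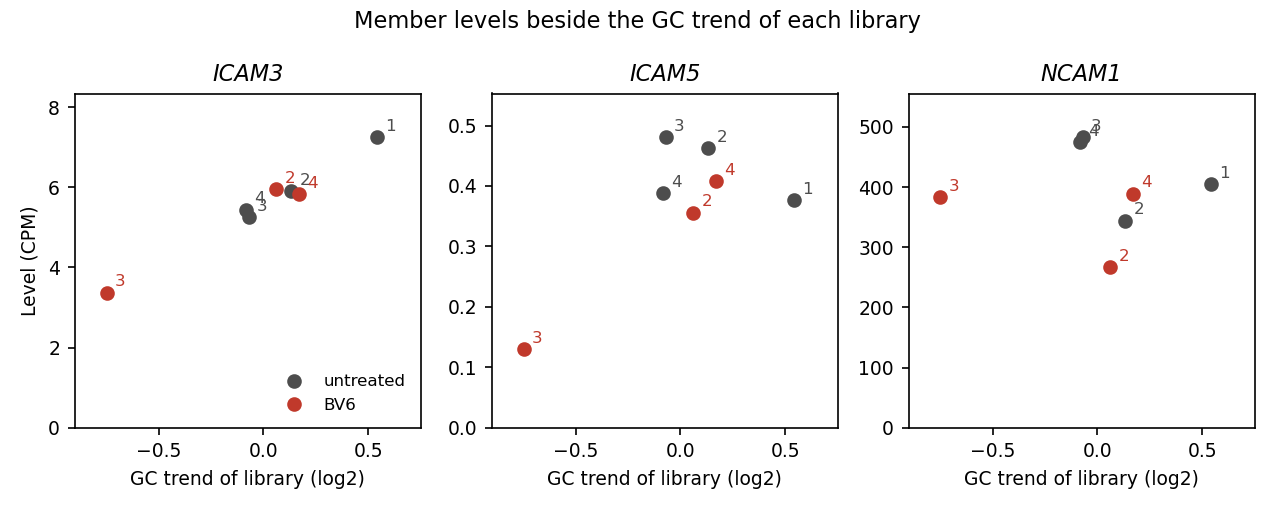
CPM of ICAM3, ICAM5 and NCAM1 in each library against the GC trend of that library, defined as the fitted log2 level at 61.4% GC minus that at 38.6% GC, with untreated samples in gray and BV6 samples in red, each numbered by replicate. BV6 replicate 3, at −0.75, held the lowest level of ICAM3 (3.37 CPM) and ICAM5 (0.130 CPM), whereas its NCAM1 level (383 CPM) lay among the other samples.

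CD58, the ligand by which target cells engage CD2, had 16.0, 19.5, 21.6 and 18.7 CPM in untreated replicates 1 to 4 and 22.0, 23.1 and 18.2 CPM in BV6 replicates 2, 3 and 4. The groups overlapped, with ratios within pairs of 1.13, 1.07 and 0.973. The log2 fold change was 0.16 (SE 0.146, adjusted p = 0.806 in edgeR), with a 95% confidence interval of −0.17 to 0.48. The interval thus covered no change as well as a small difference in either direction.

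NCAM1, the homophilic adhesion molecule known as CD56, had 405, 344, 483 and 475 CPM in untreated replicates 1 to 4 and 267, 383 and 389 CPM in BV6 replicates 2, 3 and 4. The groups overlapped because untreated replicate 2 was below BV6 replicates 3 and 4, but each BV6 sample was below its own partner. The ratio within pairs was 0.774, 0.793 and 0.820 in replicates 2, 3 and 4, and the exact 95% intervals for counting error lay between 0.757 and 0.835. The mean was 427 ± 65.2 CPM (SD, n = 4) in untreated cells and 346 ± 69.2 CPM (SD, n = 3) with BV6. Its log2 fold change was −0.30 (SE 0.167, 95% confidence interval −0.67 to 0.07), with an adjusted p of 0.687 in edgeR.

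ALCAM (CD166), the ligand of CD6, had 15.9, 17.9, 18.3 and 28.7 CPM in untreated replicates 1 to 4 and 12.3, 14.97 and 22.2 CPM in BV6 replicates 2, 3 and 4. Replicate 4 was the highest sample in both groups, so that the groups overlapped while all 3 BV6 samples were below their partners. The ratio within pairs was 0.688, 0.819 and 0.773. The log2 fold change was −0.29 (SE 0.253, adjusted p = 0.789 in edgeR), and −0.07 without untreated replicate 4.

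The fit with the experiment number as a block compared each BV6 sample with its partner. There the log2 fold change of NCAM1 was −0.33 (SE 0.0775, unadjusted p = 0.00307, adjusted p = 0.127 in edgeR) and that of ALCAM −0.40 (SE 0.116, unadjusted p = 0.00950, adjusted p = 0.228 in edgeR). The block called 0 of the 8 genes, beside 0.943% of all genes tested. An unadjusted p below 0.05 was found for 3 of the 8 (VCAM1, NCAM1 and ALCAM), beside 11.4%. Of these, VCAM1 had passed the filter only through its BV6 samples, so its p does not stand apart from that choice. A lower level in all 3 pairs was found for 2 of the 8 genes (NCAM1 and ALCAM) and for 17.8% of all genes tested. When the libraries were also corrected for GC content, an alternative chosen after the data were seen, both genes were called lower. NCAM1 then had a log2 fold change of −0.34 (SE 0.0619, adjusted p = 0.00783 in edgeR) and ALCAM of −0.43 (SE 0.0921, adjusted p = 0.0194 in edgeR). This fit called 2 of the 8 genes, beside 6.55% of the 17628 genes with a known GC content, and no member was called upward (VCAM1 log2 fold change 1.86, adjusted p = 0.0583 in edgeR). The calls of NCAM1 and ALCAM were found in that fit and in no other that was run, and over the alternatives their adjusted p in edgeR, limma or DESeq2 ranged from 0.00783 to 0.999 and from 0.0194 to 0.999. Without untreated replicate 1, the log2 fold change without a block was −0.32 for NCAM1, −0.39 for ALCAM, 0.09 for CD58 and 1.99 for VCAM1. Without BV6 replicate 3 it was −0.38, −0.22, 0.09 and 2.51, respectively. Without BV6 replicate 2 it was −0.14, −0.11, 0.13 and 2.67, so the NCAM1 and ALCAM differences were smaller without that library. None of these omissions led to a call.

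**Figure D3:**
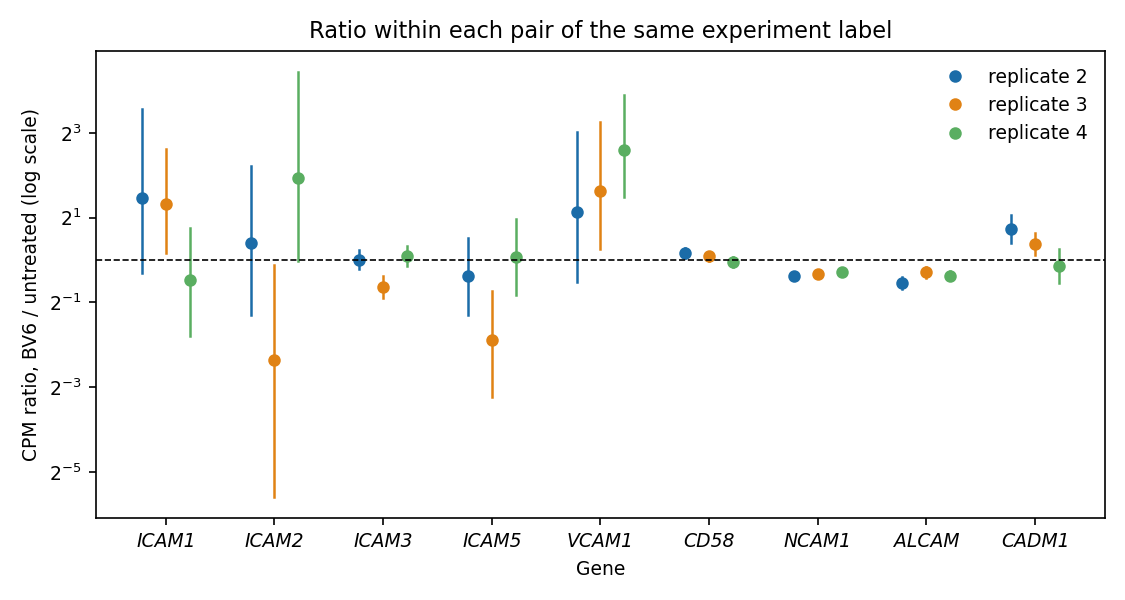
Ratio of BV6 to untreated CPM for each gene in replicates 2, 3 and 4, on a log axis, with exact 95% intervals that cover counting error only and a dashed line at a ratio of 1. VCAM1 was above 1 in all 3 pairs (2.20 to 6.03), a direction already set by the filter on low counts. NCAM1 (0.774 to 0.820) and ALCAM (0.688 to 0.819) were below 1 in all 3.

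CADM1, the ligand of the NK and T cell receptor CRTAM, had 2.08, 2.15, 3.52 and 1.92 CPM in untreated replicates 1 to 4 and 3.58, 4.58 and 1.74 CPM in BV6 replicates 2, 3 and 4. BV6 replicate 4 was the lowest of all samples and the other BV6 samples were the highest, so the BV6 samples did not share a direction. The ratio within pairs was 1.66, 1.30 and 0.907. The log2 fold change was 0.45 (SE 0.334, adjusted p = 0.762 in edgeR) and was 0.15 without BV6 replicate 3 and 0.76 without BV6 replicate 4.

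**Figure D4:**
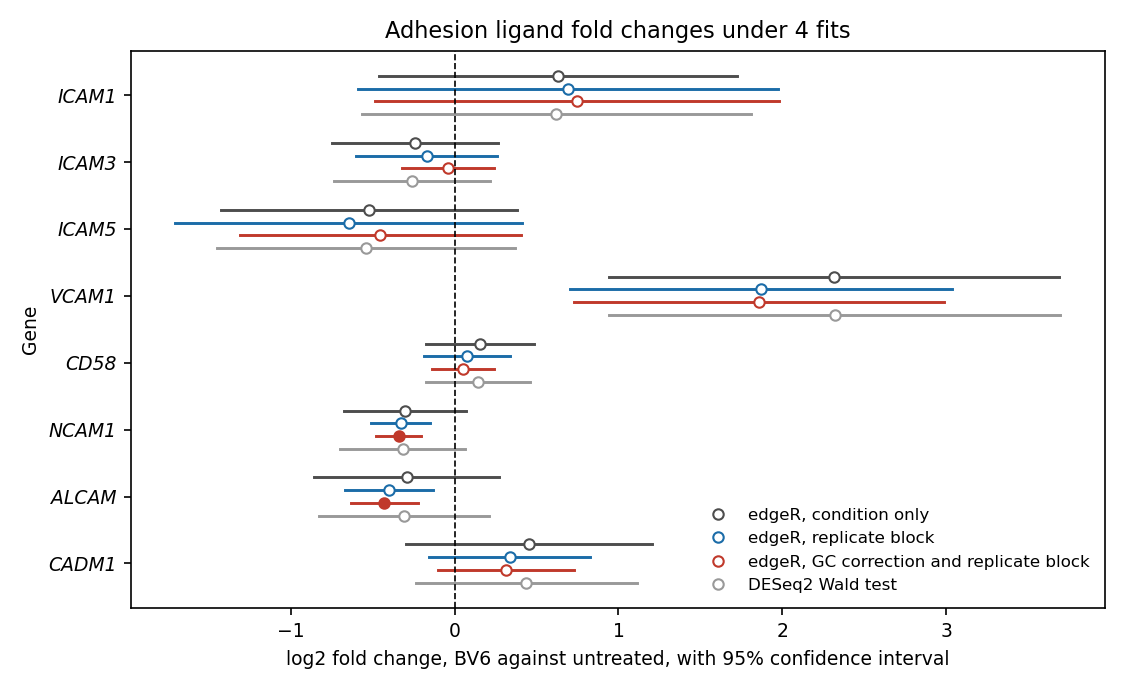
log2 fold change of BV6 against untreated for the 8 tested genes under 4 fits, with 95% confidence intervals, filled points marking an adjusted p below 0.05 and a dashed line at no change. VCAM1 lay at 1.86 to 2.32 under the 4 fits, and NCAM1 and ALCAM had filled points only in the fit with GC correction and replicate block.

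The receptors that these ligands engage on leukocytes were listed as well, since some are also transcribed in RH30 cells. Of the 11 listed, 9 were tested, 1 was called higher and 0 lower in edgeR, and the median log2 fold change was 0.16. For this list and those that follow, the shares over all genes tested were 0.45% called and 8.39% at an unadjusted p below 0.05 in edgeR. They were 0.94% called in DESeq2 (over all genes with a count, including those without an adjusted p), 0.943% with the replicate block and 6.55% with GC correction and replicate block. ITGAM, the α chain of the ICAM1 receptor Mac-1, had 23 to 40 counts in the untreated and 565 to 861 in the BV6 samples. It was higher in 3 of 3 BV6 samples, with a mean of 0.532 ± 0.144 CPM (n = 4) without and 11.7 ± 3.16 CPM (n = 3) with BV6. Its log2 fold change was 4.46 (SE 0.266, adjusted p = 0.000445 in edgeR), and it was called whichever library was left out.

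ITGAX, the α chain of another β2 integrin, had 1.22, 0.392, 1.34 and 1.65 CPM untreated and 2.44, 3.41 and 7.48 CPM with BV6. The groups did not overlap, with a log2 fold change of 1.94 (SE 0.477) and an adjusted p of 0.187 in edgeR, of 0.0180 with the replicate block and of 0.00359 in DESeq2. Their shared partner ITGB2 had a mean of 36.8 ± 5.11 CPM without and 25.0 ± 9.35 CPM with BV6, and its groups overlapped (log2 fold change −0.56, adjusted p = 0.559 in edgeR). With GC correction and replicate block it was called lower (log2 fold change −0.41, adjusted p = 0.0167 in edgeR). The chains of the VCAM1 receptor had log2 fold changes of 0.02 (ITGA4) and −0.09 (ITGB1), with adjusted p of 0.975 and 0.869 in edgeR.

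No marker of another cell type was called higher in edgeR. The 10 leukocyte and NK markers summed to 9.65 to 13.6 CPM untreated and 6.84 to 11.2 CPM with BV6, 0 of the 6 tested were called (0 also at an unadjusted p below 0.05 and in DESeq2), and none was at 0 in all samples. NKG7 accounted for most of this sum, with means of 9.79 ± 1.59 CPM and 6.82 ± 2.52 CPM. The 8 endothelial markers summed to 61.9 to 82.0 CPM untreated and 36.0 to 64.5 CPM with BV6, mostly from PECAM1, and 2 of the 5 tested had an unadjusted p below 0.05 in edgeR. PECAM1 had a log2 fold change of −0.56 (adjusted p = 0.586 in edgeR) and was called lower with GC correction and replicate block. VWF differed in the other direction, with 0.816 ± 0.265 CPM (n = 4) without and 1.48 ± 0.182 CPM (n = 3) with BV6, groups that did not overlap and a log2 fold change of 0.86 (adjusted p = 0.415 in edgeR). The 6 epithelial markers summed to 0.763 to 1.09 CPM untreated and 0.928 to 1.16 CPM with BV6. The 10 muscle-lineage markers, which are relevant to NCAM1 as a gene of this lineage, summed to 1536 to 2095 CPM untreated and 1090 to 1793 CPM with BV6, with 0 of 9 tested genes called (2 at an unadjusted p below 0.05 in edgeR, 0 in DESeq2) and a median log2 fold change of −0.27. With GC correction and replicate block, the fit that called NCAM1, ALCAM and 6.55% of all its genes, 3 of these 9 (DES, CHRNA1 and CHRNG) were called lower too. Their part in the NCAM1 values was not tested, and in bulk RNA fewer cells of a type and less RNA per cell cannot be told apart.

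Of 27 other adhesion molecules of the immunoglobulin superfamily, 20 were tested and 0 were called in edgeR. At an unadjusted p below 0.05 there were 6, beside 8.39% of all genes tested. DESeq2 called PVR lower and JAM2 higher, beside 0.94% of all genes with a count. The replicate block called PVR lower, beside 0.943%. With GC correction and replicate block, 2 were called higher (L1CAM and JAM2) and 7 lower, MCAM and PVR among them. That fit called 6.55% of all its genes in either direction. Of the 20, 15 had a lower and 5 a higher fitted level, with a median log2 fold change of −0.25. Over all 23124 genes tested, 12104 had a lower and 11020 a higher fitted level, with a median of −0.01. The most abundant of the 27 listed was L1CAM, a neural adhesion molecule, with 532 ± 73.7 CPM (n = 4) without and 698 ± 293 CPM (n = 3) with BV6 (log2 fold change 0.39, adjusted p = 0.729 in edgeR). MCAM (CD146) had a log2 fold change of −0.28 (adjusted p = 0.677 in edgeR), BSG (basigin) of −0.33 (adjusted p = 0.799) and NECTIN1 of −0.13 (adjusted p = 0.857). In each of these genes the groups overlapped.

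Of 5 genes for selectins and their partners, 3 were tested and 0 were called in edgeR, with 1 at an unadjusted p below 0.05. DESeq2 called 1, and in both cases the gene was CD34, a sialomucin that can serve as a selectin ligand. It had 9.82, 11.4, 11.8 and 8.34 CPM untreated and 6.16, 7.37 and 6.53 CPM with BV6. Its groups did not overlap, and its log2 fold change was −0.63 (SE 0.166, adjusted p = 0.231 in edgeR and 0.0239 in DESeq2, and called lower with GC correction and replicate block).

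Genes for shedding, cytoskeletal linkage and glycosylation of these adhesion molecules were tested in 11 of 11 cases, and 0 were called in edgeR or DESeq2, with 3 at an unadjusted p below 0.05 in edgeR and a median log2 fold change of 0.09. With GC correction and replicate block, 2 (EPB41L3 and FGFR1) were called higher and 1 (ST8SIA2) lower, beside 6.55% of all genes in that fit in either direction. ADAM10, the protease that sheds ALCAM among other surface proteins, had a log2 fold change of 0.01 (adjusted p = 0.990 in edgeR). MSN (moesin) and RDX (radixin), which tie ICAM tails to actin, had log2 fold changes of −0.06 and 0.09 (adjusted p = 0.888 and 0.849 in edgeR). FGFR1, a receptor tyrosine kinase that can bind NCAM1, had 67.3, 58.5, 57.2 and 57.1 CPM untreated and 80.1, 69.2 and 86.1 CPM with BV6. Its groups did not overlap, with a log2 fold change of 0.39 (SE 0.115) and an adjusted p in edgeR of 0.312, and of 0.00274 with GC correction and replicate block.

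The genes whose levels ran closest to VCAM1 and to NCAM1 over the 7 samples were sought among genes with a mean of at least 1 CPM, by the root mean square difference of centered log2 CPM. For VCAM1, whose own root mean square deviation was 1.12, they were SLC26A9 (0.376), PKD1L1 (0.519), IL7R (0.530), PAMR1 (0.537) and IFIT2 (0.579). IL7R, the α chain of the interleukin-7 receptor, had 6.58 ± 1.27 CPM (n = 4) without and 17.1 ± 2.95 CPM (n = 3) with BV6 (adjusted p = 0.0145 in edgeR). For NCAM1, whose deviation was 0.270, they were AC027319.1 (0.0375), EGLN3 (0.0430), AC097534.1 (0.0574), PCSK5 (0.0611) and SORT1 (0.0645). EGLN3, a prolyl hydroxylase of the hypoxia pathway, had 103 ± 15.4 CPM without and 84.9 ± 14.8 CPM with BV6. These are descriptions over the same 7 libraries, whose differences in depth and base composition enter every gene.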

How the data were processed

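Transcriptomes of RH30 cells were measured in 4 untreated samples and in 3 samples given 5 µM BV6 for 24 h, and libraries of other experiments were not used here. The authors deposited raw counts per gene. Per the labels and the paper's methods, libraries were poly(A)-enriched and stranded, with alignment to GRCh38 by STAR (version 2.6.1d in the submitters' processing notes). How mates, strand and shared reads were counted is not given in the sources used here. The totals exceed the reads per library that the methods name, so mates may have been counted separately, in which case counting intervals are too narrow and the floor of 3 counts stands for fewer fragments.

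Fold changes came from edgeR 4.0.16 in R 4.3.3. Genes were kept by filterByExpr at a minimum count of 10, TMM factors were applied, and the quasi-likelihood test of condition was run on all 7 samples. Values of p were adjusted by Benjamini-Hochberg over the 23124 genes tested, with a call below 0.05. Alternatives were DESeq2 1.42.0, limma-voom (limma 3.58.1), RLE factors, other filters, counts halved, a replicate block, each library left out and, added after seeing the data, a loess correction for GC content (span 0.5) and the canonical transcript length. CPM refer to TMM library sizes, and a prior count of 2 was used for log2 CPM. Libraries held 54070030 to 77220882 counts. Of the genes in the table, 36611 were matched by symbol to GENCODE release 44.

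Samples with the same experiment number deviated together, least so for number 4. The correlations of their deviations from the group means were 0.515, 0.322 and 0.197 for numbers 2, 3 and 4 over the 6 paired samples, and 0.462, 0.438 and 0.0847 with untreated replicate 1 in the means. Samples of different numbers had a mean correlation of −0.17 over the 6 paired samples, and of −0.11 with untreated replicate 1 in the means. Because deviations were taken from the group means, these negative values largely follow from the positive ones and are no separate evidence. From the correlations of the same number, the numbers were taken to pair the samples, although the labels do not say what a number stands for. Number 4 rests on a compound code in the labels, whereas each other number rests on a single code.

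The 9 genes and the gene lists were chosen with earlier results of these data known. All 9 are named. From each list, every gene called in edgeR and at most 4 more with the highest mean CPM could be named, as were the 5 genes nearest to each of the 2 tested members with the smallest p. PVR, JAM2, CHRNG, EPB41L3, ST8SIA2, ICAM4, PTPRC and NCAM1-AS1, and the promoters shown, were chosen after values were seen. The values of 1 listed gene are not reported here.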

Additional observations from a re-analysis of the deposited data

Results flagged for a closer look

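In 41 genes (the 9 ligands and genes of the lists), the 4 untreated samples were searched for a sample that stood apart by Dixon's criterion, and 4 genes had such a sample. Chance gives about 1 in 20 groups. Among the ligands it was CADM1 in untreated replicate 3, at 3.52 CPM against 1.92 to 2.15 CPM in the other untreated samples, and without this replicate the CADM1 log2 fold change was 0.69 (adjusted p above 0.05 in edgeR). Untreated replicate 1 stood apart for FGFR1 (67.3 CPM against 57.1 to 58.5), for the muscle factor MYOD1 (473 CPM against 293 to 311) and for the leukocyte phosphatase PTPRC (0.752 CPM against 0.226 to 0.285). The cause of these values was not tested.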

How the results depend on the processing

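No log2 fold change of the 8 tested genes changed sign under any alternative. In 129 of 131 comparisons of a gene with an alternative the call was also as in the main analysis. The exceptions were NCAM1 and ALCAM, called lower with GC correction and replicate block, where 2 of the 8 genes tested were called instead of 0. Over all genes, 104 were called, against 408 in DESeq2, 242 without a filter on low counts, 218 with the replicate block, 201 with GC correction and 1155 with GC correction and replicate block, and 38 to 89 with 1 library left out. The count was 41, 65, 38 and 44 without untreated replicates 1 to 4, and 57 and 53 without BV6 replicates 2 and 4. The cause was not tested. The replicate block changed no call of the 8 genes tested in it. The median log2 fold change of the tested genes was −0.24 on the 5 genes with 10 counts in every sample, −0.27 on the 6 genes tested with counts halved, and −0.0549 to 0.0389 with 1 library left out, against −0.04. It was 0.04 without BV6 replicate 3 and also without untreated replicate 4. The order of levels per length differed by 1 pair with the canonical transcript length (ICAM2 above ICAM1) and by 1 pair without length (ALCAM above CD58). The depth limits VCAM1, ICAM1, ICAM2 and ICAM5, which had at most 42 counts in any sample.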

Other observations

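ICAM4, a ligand of the β2 integrins known from red blood cells, lies between ICAM1 and ICAM5 and was chosen after its values were seen. It had 168 to 324 counts per sample and, an untreated level of 2.70 CPM per kilobase of merged exons, beside 2.14 for ICAM3. Its mean was 3.88 ± 0.271 CPM (n = 4) without and 3.25 ± 0.407 CPM (n = 3) with BV6, and its groups overlapped (log2 fold change −0.26, adjusted p = 0.735 in edgeR). The gene AC011511.5 differed from ICAM4 by at most 9 counts in any sample, so how the counting assigned reads to the ICAM4 locus is uncertain.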
